A study of Mus musculus with 34 samples.

Results

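ETS factors are transcription factors that bind DNA through a winged helix-turn-helix domain which reads a GGAA core, and 7 genes of the family that myeloid cells use were followed here: Spi1, which encodes PU.1, and Ets1, Ets2, Fli1, Elf1, Elf4 and Etv6. PU.1 opens chromatin at the enhancers of monocytes and macrophages and sets where signal-dependent factors can bind. The other members are ETS activators, apart from Etv6, a repressor that forms polymers through its pointed domain. The members were the H3K27ac regions whose nearest annotated gene was one of the 7 and whose centre lay within 100 kb of its start, together with the factor peaks that overlap them. This gave 134 of 84647 regions in the table of blood and liver cells, 146 of 95038 regions in the table of cultured macrophages, and 690 of 496538 peaks.

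H3K27ac, the acetyl mark that histone H3 carries where promoters and enhancers are active, was profiled by ChIP-seq in 5 groups of 2 libraries. They were Ly6C-high monocytes from the blood of untreated C57BL/6J mice, repopulating liver macrophages (RLM, the cells that refill the emptied Kupffer cell niche) from Clec4f-cre/Rosa26iDTR mice 24 h after diphtheria toxin, Kupffer cells (the resident macrophages of the liver sinusoids) from untreated mice, and C57BL/6J bone marrow-derived macrophages (BMDM) of 4 days of culture, kept without ligand or with the Notch ligand DLL4 for 24 h. In the RLM mice the Cre driver Clec4f, a Kupffer cell gene, switches on the toxin receptor, so that the toxin kills the resident Kupffer cells. The sample labels give the Kupffer cells as C57BL/6J and the series text gives them as Clec4f-Cre/DTR, and strain, toxin and cell type cannot be told apart in comparisons with RLM. Peaks of LXR, SMAD4 and RBPJ, which are end points of oxysterol, TGF-beta and Notch signalling, were deposited for 2 libraries each of Clec4f-cre Kupffer cells (LXR) or their nuclei (SMAD4, RBPJ) and of C57BL/6J BMDM, which for LXR were grown for 7 days and given its agonist GW3965 for 18 h.

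Tags in regions came to 7.37 to 19.5 M per library of blood and liver cells and 20.2 to 27.2 M per library of cultured macrophages, and the factor libraries held 11.1 to 56.3 M tags and 11277 to 80480 peaks. Levels are CPM, tags per 1 M of the scaled tags of a library, and differences are log2 values with the standard error (SE) of an edgeR fit. A region or gene is called higher or lower where the Benjamini-Hochberg adjusted p was under 0.05 and the difference at least 2-fold. Cell type markers were read in the same way. The 6 Kupffer cell marker genes summed to 73.9 and 56.4 CPM in monocytes, 143 and 152 CPM in RLM, and 1381 and 1559.7 CPM in Kupffer cells. The 6 Ly6C-high monocyte genes summed to 421 and 419.7 CPM in monocytes, 449 and 433 CPM in RLM, and 215 and 229 CPM in Kupffer cells, so that this sum was no higher in monocytes than in RLM. Fn1 and S100a4 were among those lower in RLM than in monocytes, and Ccr2 was higher in Kupffer cells than in monocytes. The 3 comparisons among these cells share libraries, and so their results are not independent of each other.

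Promoter sequence is shown first, since the Ets2 promoter was the member start whose H3K27ac was called higher in RLM and those of Etv6, Elf1 and Elf4 were not called there. The table of RefSeq promoters (GRCm38.p6) held 6 windows of 4 members, and the 250 bases before the start are printed 5′ to 3′ on the gene's strand, with the ETS core (GGAA, or TTCC on the other strand) in capitals. They are Ets2 on the plus strand (chr16:95702157-95702406), Etv6 on the plus strand (chr6:134035450-134035699), the first of 2 Elf1 starts on the plus strand (chr14:79480944-79481193) and the first of 2 Elf4 starts on the minus strand (chrX:48463133-48463382).
Ets2: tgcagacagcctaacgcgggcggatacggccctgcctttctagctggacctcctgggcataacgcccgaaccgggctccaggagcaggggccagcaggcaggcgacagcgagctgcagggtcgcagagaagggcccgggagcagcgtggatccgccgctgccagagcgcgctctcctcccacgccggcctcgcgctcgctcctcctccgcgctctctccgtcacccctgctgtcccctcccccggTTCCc
Etv6: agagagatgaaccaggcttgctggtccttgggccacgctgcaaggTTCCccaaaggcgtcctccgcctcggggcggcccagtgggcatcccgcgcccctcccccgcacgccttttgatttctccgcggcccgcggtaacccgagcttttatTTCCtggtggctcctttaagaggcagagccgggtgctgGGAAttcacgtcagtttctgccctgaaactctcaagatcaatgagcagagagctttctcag
Elf1: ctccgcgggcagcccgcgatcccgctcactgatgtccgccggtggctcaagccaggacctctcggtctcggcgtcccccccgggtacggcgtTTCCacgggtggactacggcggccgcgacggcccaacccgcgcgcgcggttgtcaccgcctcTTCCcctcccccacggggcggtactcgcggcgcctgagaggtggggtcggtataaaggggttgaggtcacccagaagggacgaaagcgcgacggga
Elf4: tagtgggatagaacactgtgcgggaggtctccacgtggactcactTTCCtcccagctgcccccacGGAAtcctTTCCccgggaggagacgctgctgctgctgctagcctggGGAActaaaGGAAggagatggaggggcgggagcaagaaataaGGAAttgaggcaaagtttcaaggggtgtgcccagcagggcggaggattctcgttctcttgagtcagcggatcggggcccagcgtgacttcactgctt
The core stood 1 time in the printed Ets2 stretch, 3 times in Etv6, 2 times in Elf1 and 6 times in Elf4. It is a short motif, and 96% of 32851 RefSeq promoter windows of 300 bases held it on one strand or the other. The longer PU.1 form GAGGAAGT was in 3.2% of all windows and the ETS1 and FLI1 form CCGGAAGT in 3.89%, both strands searched, and neither was in the 6 windows of the members. The RBPJ core TGGGAA, which can overlap GGAA, was in 25.6% of all windows and matched 1 time each in the Etv6 window and the first Elf4 window. The SMAD core CAGAC was in 49.6% of windows and matched 1 time in Ets2 and 1 time at the second Elf1 start. These letters describe the windows and no more.

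Summed over all regions of a gene, H3K27ac at Spi1, Ets1 and Ets2 was higher in Kupffer cells than in monocytes, and at Fli1, Elf1, Elf4 and Etv6 it was not called. Of all gene sums tested, 18.4% were called higher and 14.4% lower in this comparison, against 3 higher among the 7 members. An adjusted p under 0.05 was reached by 6 of the 7 in edgeR and 5 in DESeq2. Some of those not called thus missed only the 2-fold minimum. The median difference of the members was 0.48, against -0.08 over all genes. The step at which the 3 genes rose differed: Ets2 was higher in RLM than in monocytes, while Spi1 and Ets1 were called between RLM and Kupffer cells. In bulk samples, a change in the mix of cells and a change in the mark per cell cannot be told apart. Backgrounds for these steps were 6.2% of gene sums higher and 5.8% lower in RLM against monocytes, and 14.6% higher and 12.8% lower in Kupffer cells against RLM.

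**Figure D1:**
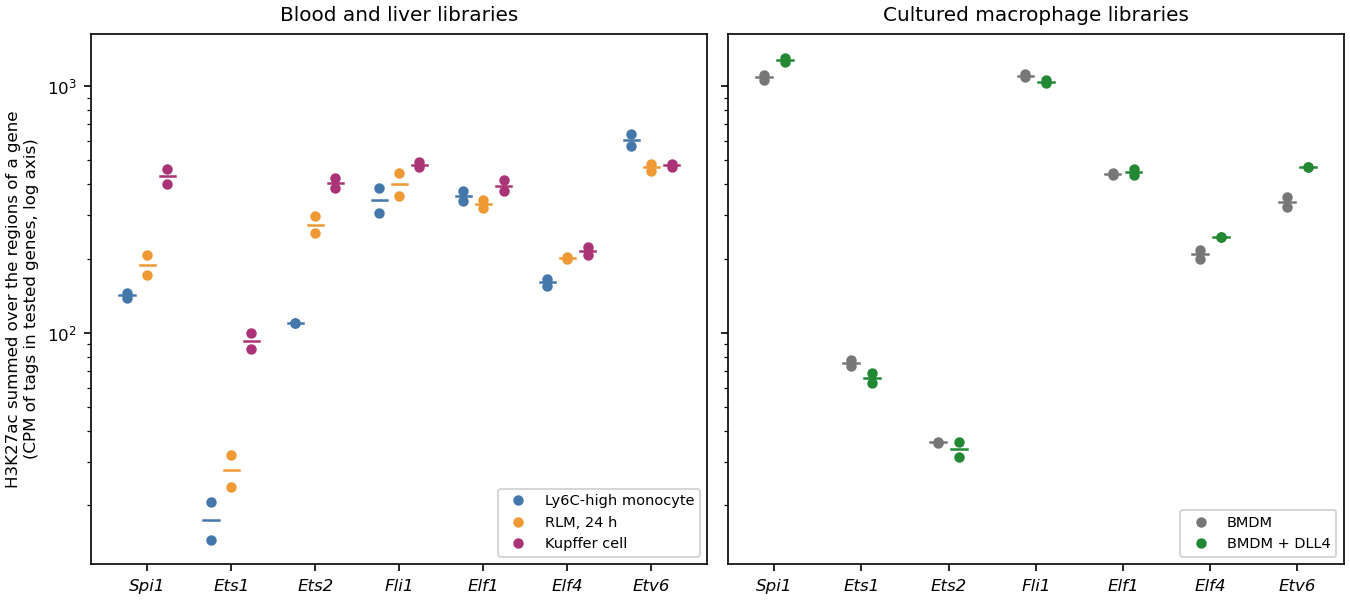
H3K27ac summed over the regions of each member, in CPM on a log axis, with 1 point per library and a bar at the mean of 2 libraries. In the left panel Spi1 and Ets1 lie between 403 and 463 CPM and between 85.9 and 99.8 CPM in Kupffer cells, above all monocyte and RLM libraries, while Etv6 is highest in monocytes. The panels come from separately made tables, and the number of regions differs between genes.

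Spi1 encodes the master regulator of the myeloid lineage. Its 9 regions summed to 138 and 145 CPM in monocytes, 171 and 207 CPM in RLM, and 403 and 463 CPM in Kupffer cells. The libraries of the 3 cell types did not overlap. The log2 difference of Kupffer cells against RLM was 1.19 (SE 0.15, edgeR adjusted p = 6.84e-08), and that of RLM against monocytes was 0.42 (SE 0.15, adjusted p = 0.0318), under 2-fold. With total tags in place of TMM scaling, which moved the median of all gene sums in Kupffer cells against RLM from -0.07 to -0.40, the difference was 0.87 and under 2-fold. That scaling turned the split of all calls from 2444 higher and 2142 lower into 1551 higher and 3525 lower.

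The Spi1 rise lay over the upstream stretch more than over the start. All 5 regions from -12304 to -7468 bp (negative values are upstream of the start) were called higher in Kupffer cells against RLM, with differences of 1.15 to 1.59. At -12304 bp (chr2:91083374-91085374) the level was 23.2 and 21.1 CPM in monocytes, 23.5 and 30.7 CPM in RLM, and 56.9 and 72.1 CPM in Kupffer cells. At -7468 bp (chr2:91088210-91090210) it was 5.79 and 6.60 CPM, then 7.75 and 6.91 CPM, then 21.1 and 22.9 CPM. Both Kupffer cell libraries lay far above the other 4, and RLM stood 0.24 (SE 0.30) above monocytes, with no call. The region at the start (chr2:91095727-91097727) held 34.8 and 50.2 CPM in monocytes, 43.1 and 48.3 CPM in RLM, and 68.1 and 85.8 CPM in Kupffer cells, a difference of 0.75 (SE 0.21) from RLM that was under 2-fold. The authors' annotation calls the upstream regions intergenic, whereas all 9 Spi1 regions lie inside the RefSeq gene model (chr2:91082374-91115759, gene ID 20375). In intron 2, at 4911 bp, levels were low: 1.82 and 1.24 CPM in monocytes against 5.60 and 6.51 CPM in Kupffer cells, a called log2 difference of 1.99 (SE 0.44).

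Ets1, best known in lymphocytes and endothelium, had the largest log2 difference of the 7 gene sums in Kupffer cells against RLM and against monocytes. Its 11 regions summed to 20.5 and 14.5 CPM in monocytes, 31.8 and 23.8 CPM in RLM, and 85.9 and 99.8 CPM in Kupffer cells. Kupffer cells differed from RLM by 1.75 (SE 0.20, edgeR adjusted p = 9.74e-09) and from monocytes by 2.41 (SE 0.20, adjusted p = 6.09e-12). RLM lay above both monocyte libraries, by 0.66 (SE 0.21), under 2-fold. The rise sat in 4 regions from -23451 to -15706 bp and in the promoter. At -19765 bp (chr9:32675277-32677277) the level was 1.57 and 0.413 CPM in monocytes, 2.36 and 1.83 CPM in RLM, and 13.7 and 18.0 CPM in Kupffer cells, where the difference from monocytes was 3.99 (SE 0.41). The promoter (chr9:32694987-32696987) held 5.46 and 6.19 CPM, then 7.75 and 5.59 CPM, then 16.9 and 20.5 CPM, a difference of 1.51 (SE 0.30) from RLM. The regions at -43611, 13943 and 20199 bp stayed at or under 2.84 CPM in each library. All 11 regions lie inside the RefSeq model of Ets1 (chr9:32636241-32757820, gene ID 23871), which neighbours Fli1.

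Endothelial and lymphocyte markers are given beside Ets1, since those cells express it. The 7 measured of 8 liver endothelium genes summed to 109 and 95.9 CPM in monocytes, 126 and 124 CPM in RLM, and 201 and 204 CPM in Kupffer cells. Of these, Stab2, Pecam1 and Cdh5 were higher in Kupffer cells than in monocytes, and Kdr, Clec4g and Erg were lower. While the sum rose, the list median in that comparison was -1.12, against -0.08 over all genes. The sinusoidal scavenger receptor gene Stab2 had 10.9 and 8.54 CPM in monocytes against 79.1 and 72.4 CPM in Kupffer cells, and Pecam1 had 45.3 and 42.2 CPM against 94.1 and 110.5 CPM. Kdr had 22.2 and 21.4 CPM in monocytes against 8.35 and 7.73 CPM in Kupffer cells. The 5 tested of 10 T, NK and B cell genes summed to 240 and 328 CPM in monocytes, 137 and 142 CPM in RLM, and 144 and 189.9 CPM in Kupffer cells. Of these 5, the T cell gene Cd3d was lower in Kupffer cells than in monocytes and the other 4 were not called, with a list median of -0.07 against -0.08 over all genes. The part of other cells in the Ets1 values was not tested.

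Ets2, an activator that acts downstream of Ras and MAP kinase signalling, rose at the first step. Its 18 regions summed to 110.1 and 109.9 CPM in monocytes, 253 and 297 CPM in RLM, and 388 and 425 CPM in Kupffer cells, with no overlap between the cell types. The difference of RLM against monocytes was 1.32 (SE 0.15, edgeR adjusted p = 2.7e-08). Kupffer cells lay 0.56 (SE 0.15, adjusted p = 0.00184) above RLM, under 2-fold, and 1.89 (SE 0.15) above monocytes. Summed markers of some other cells rose at these steps, while the neutrophil sum was no higher in RLM or Kupffer cells than in monocytes. The 4 tested of 6 megakaryocyte and erythroid genes summed to 24.7 and 22.7 CPM in monocytes, 58.4 and 55.4 CPM in RLM, and 54.2 and 62.5 CPM in Kupffer cells, with Pf4 called higher in RLM and the other 3 not. The 3 tested of 4 hepatocyte genes summed to 15.8 and 17.1 CPM, then 19.1 and 20.3 CPM, then 48.1 and 50.7 CPM, with Ttr called at both steps and Alb and Apoa1 at neither. Gp9, of the first list, was lower in Kupffer cells than in monocytes. The megakaryocyte and erythroid median was 0.09 in RLM against monocytes, against 0.07 over all genes. The hepatocyte median was 0.60 at that step, and -0.08 in Kupffer cells against RLM, against -0.07 over all genes. The part of such cells in the Ets2 values was not tested.

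Along the Ets2 locus the steps were called at different regions, apart from 1784 and 7022 bp, where both were. At the promoter (chr16:95701409-95703409) H3K27ac was 23.7 and 25.5 CPM in monocytes, 66.3 and 80.0 CPM in RLM, and 63.3 and 82.5 CPM in Kupffer cells. The promoter was thus higher in RLM by 1.57 (SE 0.21), and RLM and Kupffer cells overlapped. The adjoining region in intron 1 at 1029 bp rose by 1.70 (SE 0.23) in RLM. Further into the gene, at 5949 bp (chr16:95707356-95709356), the level was 9.59 and 10.2 CPM in monocytes, 16.3 and 20.3 CPM in RLM, and 43.3 and 54.6 CPM in Kupffer cells. This intronic region was called in Kupffer cells against RLM, with a difference of 1.42 (SE 0.23), and RLM against monocytes gave 0.89 (SE 0.25), under 2-fold. At 1784 bp the steps were 1.55 (SE 0.45) in RLM and 1.76 (SE 0.37) in Kupffer cells, but the RLM call was lost without RLM replicate 2 or monocyte replicate 2. Beyond the 3′ end, at 21973 bp (chr16:95723380-95725380), Kupffer cells had 7.03 and 6.22 CPM against 2.76 and 2.23 CPM in RLM, a difference of 1.41 (SE 0.41).

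Fli1, an activator of blood and endothelial development, was not called as a sum. Its 28 regions summed to 385 and 307 CPM in monocytes, 360.3 and 445 CPM in RLM, and 468 and 494 CPM in Kupffer cells, where monocytes and RLM overlapped. The 95% interval of the log2 difference of Kupffer cells against RLM was -0.05 to 0.57. Inside the locus, 9 regions were called higher in Kupffer cells against RLM, all of them in introns from 19861 to 68919 bp. At 66255 bp (chr9:32474197-32476197) the level was 3.47 and 3.63 CPM in monocytes, 4.20 and 3.45 CPM in RLM, and 11.8 and 17.7 CPM in Kupffer cells, a difference of 1.97 (SE 0.33) from RLM. The start region at 682 bp (chr9:32539770-32541770) ran the other way without a call: 50.8 and 44.5 CPM in monocytes, 68.7 and 86.4 CPM in RLM, and 50.3 and 65.5 CPM in Kupffer cells. Between 32240 and 33726 bp, 4 overlapping regions were called higher in Kupffer cells than in RLM by 1.01 to 1.21. Against monocytes the same 4 differed by 0.27 to 0.44, under 2-fold.

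Elf1, which is known to act in lymphocytes and myeloid cells, had 2 acetylated starts with no call and a stretch between them that rose. The sums were 343 and 375 CPM in monocytes, 345 and 322 CPM in RLM, and 375 and 416 CPM in Kupffer cells. Monocytes overlapped RLM, and both Kupffer cell libraries lay above both RLM libraries, without a call. The first start region at -79 bp (chr14:79480115-79482115) held 48.5 and 62.4 CPM in monocytes, 67.8 and 65.5 CPM in RLM, and 51.6 and 48.5 CPM in Kupffer cells. The second start region, at 749 bp, held 74.1 and 84.5 CPM in monocytes and 63.6 and 62.6 CPM in RLM. There Kupffer cells had 43.4 and 63.1 CPM, a log2 difference of -0.57 (SE 0.20, edgeR adjusted p = 0.0136) from monocytes, under 2-fold. Intron 1 of the longer transcript, at -6530 bp from the second start (chr14:79508144-79510144), had 1.90 and 0.743 CPM in monocytes, 1.05 and 0.508 CPM in RLM, and 12.5 and 12.7 CPM in Kupffer cells. The log2 difference from RLM was 4.05 (SE 0.46, edgeR adjusted p = 1.69e-11), the largest of the 130 member regions tested in that comparison. The neighbours at -11791 and -3896 bp rose by 2.02 and 2.08. In the other direction, regions at 33992 and 35054 bp were lower in RLM than in monocytes. At 33992 bp (chr14:79548666-79550666) the level was 36.1 and 39.4 CPM in monocytes, 15.1 and 14.9 CPM in RLM, and 24.4 and 27.1 CPM in Kupffer cells, where RLM fell by 1.33 (SE 0.23) on the log2 scale.

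Elf4, also called MEF, is an activator with roles in NK cells and in interferon induction. Its 18 regions summed to 166 and 155 CPM in monocytes, 199.8 and 204 CPM in RLM, and 208 and 224 CPM in Kupffer cells, with no call in the comparisons of these cells. Within the locus, 7 of the 10 intronic regions from 29439 to 39964 bp were called higher in Kupffer cells than in RLM. At 39964 bp (chrX:48422168-48424168) the level was 5.62 and 3.80 CPM in monocytes, 1.97 and 2.74 CPM in RLM, and 6.80 and 7.33 CPM in Kupffer cells, a difference of 1.57 (SE 0.39) from RLM. The region at 8832 bp (chrX:48453300-48455300), which holds the second RefSeq start window, was lower. It had 24.7 and 24.3 CPM in monocytes, 36.3 and 32.0 CPM in RLM, and 16.6 and 16.9 CPM in Kupffer cells. Kupffer cells fell by 1.03 (SE 0.23) against RLM. This value lay close to the 2-fold limit and the call was lost without RLM replicate 1, without Kupffer cell replicate 1 or without the filter on low counts.

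Etv6 was the member with the most regions, 35, and with falls and rises side by side. The sums were 570 and 639 CPM in monocytes, 455 and 482 CPM in RLM, and 469 and 486 CPM in Kupffer cells. Monocytes lay above both liver groups, which overlapped, and the log2 difference of RLM from monocytes was -0.37 (SE 0.14, edgeR adjusted p = 0.0465), under 2-fold. The promoter (chr6:134034762-134036762) held 94.2 and 114 CPM, then 110.1 and 113 CPM, then 74.9 and 88.9 CPM, with no call.

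The regions lower in RLM than in monocytes lay far inside Etv6, at 37433 bp and from 79488 to 85194 bp. T, NK and B cell genes are given beside these and the 2 lower Elf1 regions. The 5 tested of 10 summed to 240 and 328 CPM in monocytes and 137 and 142 CPM in RLM. Of these 5, Cd3d and Klrb1c were lower and the rest not called, with a list median of -0.22 against 0.07 over all genes. The part of such cells in the lower regions was not tested. At 80054 bp (chr6:134114754-134116754) the level was 30.2 and 35.7 CPM in monocytes, 9.59 and 12.7 CPM in RLM, and 15.6 and 15.1 CPM in Kupffer cells. RLM fell by 1.56 (SE 0.25) against monocytes on the log2 scale. At 85194 bp it was 56.9 and 57.3 CPM, then 23.6 and 25.1 CPM, then 15.4 and 16.0 CPM, so that all 3 cell types separated. At 95266 bp (chr6:134129966-134131966) monocytes had 6.12 and 6.36 CPM, RLM 4.86 and 3.05 CPM, and Kupffer cells 0.358 and 0.704 CPM. Kupffer cells fell by 2.74 (SE 0.51) against RLM and by 3.41 (SE 0.49) against monocytes on the log2 scale. Around an inner exon annotated as 5′ UTR, regions at 29555, 32928 and 34371 bp were called higher in Kupffer cells against RLM, by 1.05 to 1.12. The 100 kb limit left 9 further Etv6 regions of this table out, the nearest at 105813 bp with 11 to 25 tags per library, and the last one inside, at 99478 bp, had 21 to 52 tags.

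**Figure D2:**
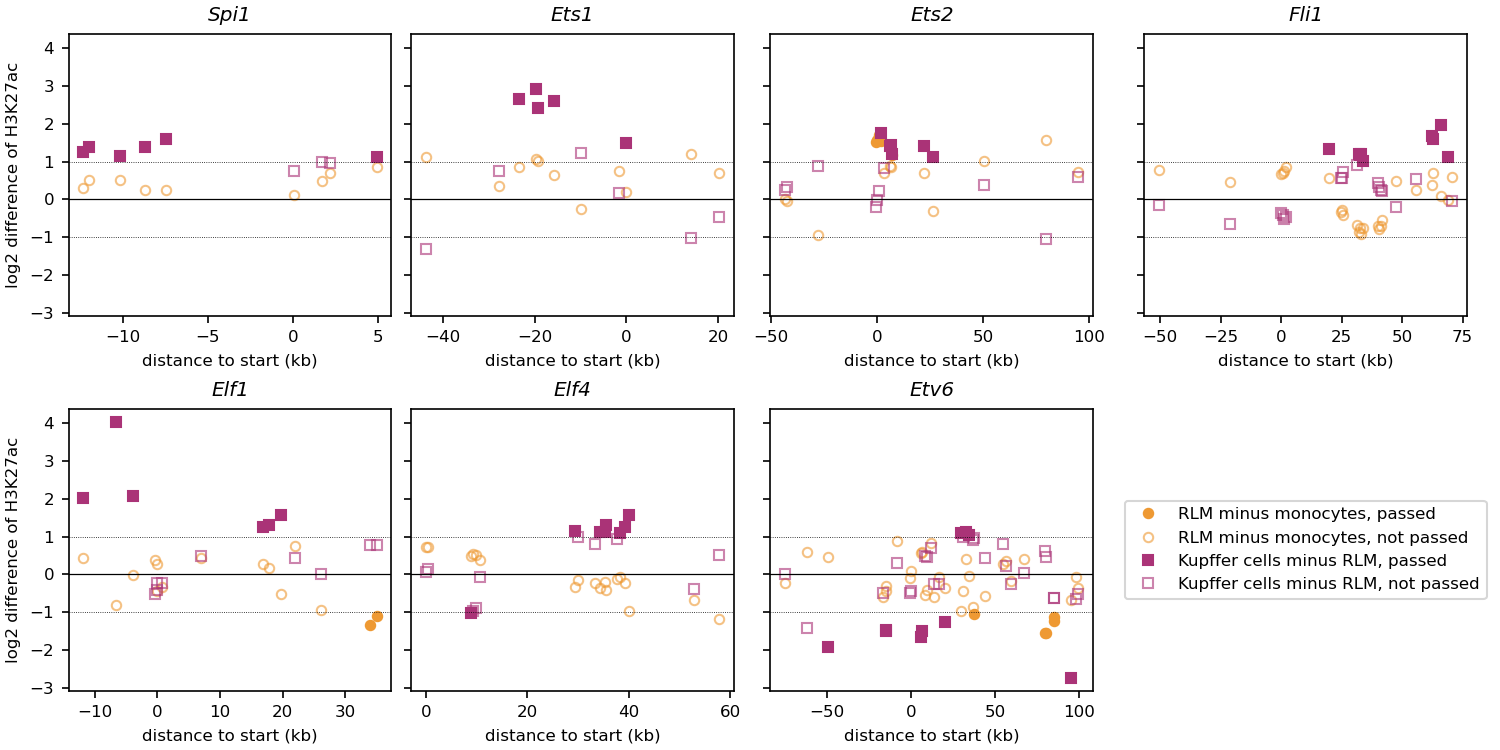
Log2 difference of H3K27ac for each tested member region against its distance to the annotated start in kb, with circles for RLM minus monocytes and squares for Kupffer cells minus RLM, filled where called, and dotted lines at 2-fold. The filled squares stand mostly away from the start, as at -6530 bp in Elf1 (4.05), and the filled circles are 5 Ets2 regions, 4 of them within 3 kb of its start and 1 at 7022 bp, and lower regions of Elf1 and Etv6.

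Counted over the members, 130 of 134 regions passed the filter on low counts. The 4 left out were 2 of Ets2 and 2 of Fli1, with at most 18 tags per library. In RLM against monocytes 5 regions were higher and 7 lower, beside a background of 8.57% higher and 9.14% lower among all 80982 regions. All 5 higher regions were of Ets2, and the lower ones were 5 of Etv6 and 2 of Elf1. In Kupffer cells against RLM 42 were higher and 8 lower (background 22.3% and 13.9%): 6 of 9 Spi1 regions, 5 of 11 Ets1, 6 of 16 Ets2, 9 of 26 Fli1, 6 of 15 Elf1, 7 of 18 Elf4 and 3 of 35 Etv6 were higher. Of the 8 lower, 7 were of Etv6 and 1 of Elf4. In Kupffer cells against monocytes 42 were again higher and 8 lower (background 24.9% and 17.7%), among them 11 of 16 Ets2 regions and 8 of 9 Spi1 regions, and all 8 lower ones were of Etv6. The median difference over members was 0.14, 0.56 and 0.48 in these comparisons, against 0.07, -0.04 and -0.06 over all regions.

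Neighbouring regions overlap and share tags, and the 134 regions form 74 separate stretches. Stretches with a higher region numbered 2 in RLM against monocytes and 24 in Kupffer cells against RLM, and those with a lower region numbered 4 and 6. By position, 40 of 109 member regions farther than 3 kb from a start were called higher in Kupffer cells against RLM, beside 27.2% of all such regions. Of the 21 nearer ones 2 were, beside 14.3% of all near regions. In RLM against monocytes, 4 of the 21 near member regions were higher (8.36% of all near regions), as was 1 of the 109 others (8.78% of all). The RLM counts rested on single libraries: 8 were higher without RLM replicate 1 or without monocyte replicate 1 and 3 without RLM replicate 2, while 13 were lower without RLM replicate 2 and 11 without monocyte replicate 2. Without Kupffer cell replicate 2, the deepest library, 28 were higher and 4 lower in Kupffer cells against RLM.

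Genes whose sums followed the members most closely over the 6 blood and liver libraries were sought among 16749 genes. The measure was the Euclidean distance between log2 CPM values centred on the mean of each gene. Nearest to Ets1, the member with the largest rise, were Postn (0.15), Sema4b (0.20) and Mir706 (0.25). Sema4b, a semaphorin, had 57.6 and 46.0 CPM in monocytes, 100.1 and 67.4 CPM in RLM, and 274 and 308 CPM in Kupffer cells. Nearest to Etv6, whose sum was the lowest in Kupffer cells relative to monocytes though not called, were Tgfbrap1, Afg1l and Sos2, at distances of 0.10, 0.10 and 0.11.

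The other ETS genes were called in both directions. Of a list of 20, 17 had a tested sum. In RLM against monocytes 1 was higher, beside 6.2% of all gene sums. In Kupffer cells against RLM 4 were higher and 3 lower (14.6% and 12.8% of all). In Kupffer cells against monocytes 4 were higher and 3 lower (18.4% and 14.4% of all). The list's median in Kupffer cells against monocytes was -0.04, against -0.08 over all genes. Spic, the PU.1 relative of iron-recycling macrophages, had 4.94 and 3.38 CPM in monocytes, 75.4 and 72.6 CPM in RLM, and 172 and 191 CPM in Kupffer cells. Its difference was 4.15 (SE 0.21) at the first step and 1.29 (SE 0.17) at the second. Etv5 and Etv1, of the PEA3 group that responds to MAP kinase signalling, were 1.57 (SE 0.18) and 1.94 (SE 0.18) higher in Kupffer cells than in RLM. Elf3, an epithelial ETS factor, was 1.55 (SE 0.24) higher. Erg, an endothelial member, fell by 1.12 (SE 0.25) on the log2 scale in Kupffer cells against monocytes. The remaining lower genes, Elf5, Ehf and Spib, were called on few tags, with 1 to 13 tags per Kupffer cell library.

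A list of 22 textbook PU.1 targets and partners was also read. In RLM against monocytes 2 were higher (6.2% of all gene sums), Cebpa by 1.09 (SE 0.15) and Tlr4 by 1.07 (SE 0.18). In Kupffer cells against RLM 10 were higher and 1 lower (14.6% and 12.8% of all). In Kupffer cells against monocytes 6 were higher and 2 lower (18.4% and 14.4% of all). The list medians in these 2 comparisons were 0.90 and 0.77, against -0.07 and -0.08 over all genes. Irf8, a partner of PU.1 on composite sites, had 85.5 and 89.4 CPM in monocytes, 144 and 141 CPM in RLM, and 476 and 495 CPM in Kupffer cells. Cd14, a lipopolysaccharide co-receptor, was 2.09 (SE 0.17) higher in Kupffer cells than in RLM, Csf3r 1.55 (SE 0.17) and Lyz2 1.54 (SE 0.18). Csf1r, the receptor for M-CSF, was 1.71 (SE 0.16) higher in Kupffer cells than in monocytes. Cebpb, which encodes C/EBP-beta, fell by 1.54 (SE 0.24) in Kupffer cells against RLM on the log2 scale, from 169 and 181 CPM to 82.2 and 40.3 CPM.

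DLL4 on cultured macrophages called none of the 7 gene sums by edgeR, nor by DESeq2. Over all gene sums 2.6% were higher and 1.28% lower. Unadjusted p-values were under 0.05 for 5 members by edgeR and for 4 by DESeq2. The nearest to a call was Etv6, with 324 and 357 CPM without ligand and 470.01 and 470.02 CPM with DLL4, a log2 difference of 0.46 (SE 0.05, edgeR adjusted p = 5.06e-12), under 2-fold. Spi1 had 1060.4 and 1109.9 CPM without and 1255.6 and 1303 CPM with DLL4, a difference of 0.24 (SE 0.04, adjusted p = 2.17e-07), also under 2-fold. Elf4 differed by 0.23 (SE 0.06, adjusted p = 0.00112), and in these 3 genes both DLL4 libraries lay above both others. The 95% intervals of the other differences were -0.38 to -0.01 for Ets1, -0.34 to 0.14 for Ets2, -0.16 to -0.01 for Fli1 and -0.06 to 0.13 for Elf1.

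Among the regions, 140 of 146 passed the filter, and 6 were higher and 2 lower with DLL4 (background 4.89% and 2.64%). The 6 left out, 1 of Ets1, 3 of Ets2 and 2 of Fli1, had at most 20 tags per library. All 6 higher regions were in Etv6 introns. At 34366 bp (chr6:134069066-134071066) the level was 2.28 and 1.70 CPM without ligand and 16.2 and 15.9 CPM with DLL4, a log2 difference of 3.03 (SE 0.21, edgeR adjusted p = 1.53e-13). Next to it, the region at 36901 bp had 10.4 and 9.92 CPM without and 30.2 and 28.7 CPM with the ligand, a difference of 1.54 (SE 0.13). That at 37419 bp differed by 1.43 (SE 0.13), and those at 2496, 30594 and 32920 bp by 1.06 to 1.08. The promoter region at 73 bp had 55.0 and 60.7 CPM without and 68.1 and 73.3 CPM with DLL4, under 2-fold, and the stretch from 79478 to 85177 bp differed by -0.17 to -0.06. The same inner stretch of Etv6 was described above in Kupffer cells against RLM, where 34371 bp had 8.15 and 4.88 CPM in RLM and 11.6 and 14.8 CPM in Kupffer cells.

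**Figure D3:**
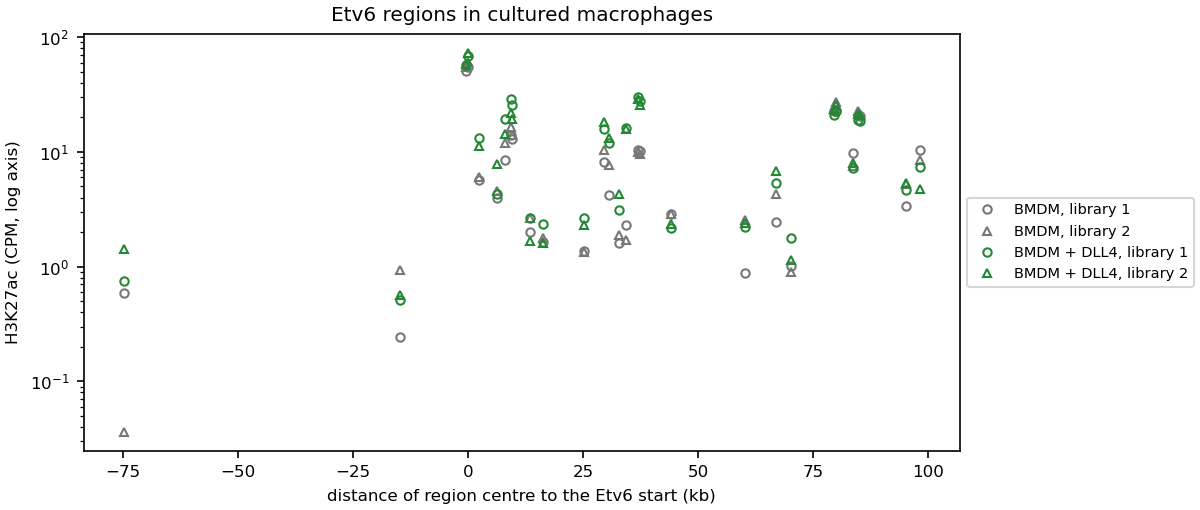
H3K27ac of each tested Etv6 region in BMDM libraries without (grey) and with DLL4 (green), in CPM on a log axis, against distance to the Etv6 start in kb, with a circle for library 1 and a triangle for library 2. At 34366 bp the DLL4 points sit at 16.2 and 15.9 CPM above 2.28 and 1.70 CPM, and from 79478 to 85177 bp the 4 libraries lie together.

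The 2 lower regions were faint. At -61931 bp of Fli1 the level went from 1.75 and 1.63 CPM to 0.465 and 0.333 CPM, and at 53095 bp of Elf4 from 2.38 and 2.61 CPM to 1.26 and 0.951 CPM. Leaving out single libraries gave 0 to 3 lower regions: 0 without BMDM replicate 1, and 1 without BMDM replicate 2 or without DLL4 BMDM replicate 2. It gave 4 to 10 higher ones, with 10 without BMDM replicate 2. Of the other ETS genes, Spic was higher with DLL4, from 1.72 and 2.11 CPM to 5.81 and 5.56 CPM, a difference of 1.56 (SE 0.33). None of the 22 PU.1 targets and partners was called by edgeR or DESeq2, and 15 had an unadjusted p under 0.05 by edgeR and 13 by DESeq2. Endothelial genes, measured for 6 of 8, summed to 66.4 and 65.3 CPM without and 151.2 and 150.9 CPM with DLL4, with Pecam1 called higher. The list median was 0.11, against -0.01 over all genes. The part of endothelial genes' cells in the Etv6 values was not tested.

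Side by side, and with no comparison since the tables were made separately, Ets2 summed to 388 and 425 CPM over 18 regions in Kupffer cells and to 36.2 and 35.9 CPM over 10 regions in BMDM. Spi1 summed to 403 and 463 CPM over 9 regions in Kupffer cells and to 1060.4 and 1109.9 CPM over 14 regions in BMDM.

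The 690 factor peaks at members formed 137 separate sites. Peaks called in both libraries stood at 39 sites for LXR in Kupffer cells and 43 in BMDM, at 45 and 26 for SMAD4, and at 11 and 87 for RBPJ. The RBPJ lists differ in length, with 13394 and 11277 peaks in Kupffer cell nuclei against 80480 and 78976 in BMDM. Read as regions of the first table, 43.3% of member regions overlapped an LXR peak of both Kupffer cell libraries, against 41.8% of all regions within 100 kb of a start. For SMAD4 in Kupffer cell nuclei it was 52.2% against 36.7%, and for RBPJ 17.9% against 11.3%. In BMDM, members stood at 45.5% against 32.6% for LXR, 32.1% against 30.3% for SMAD4 and 76.9% against 69.9% for RBPJ. Of the regions in the table of cultured macrophages, 38.4% of members overlapped an LXR peak of Kupffer cells against 35.3% of all, 44.5% against 31.2% a SMAD4 peak and 15.8% against 9.64% an RBPJ peak. With BMDM peaks it was 45.2% against 31.1% for LXR, 31.5% against 28.7% for SMAD4 and 75.3% against 70.6% for RBPJ.

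**Figure D4:**
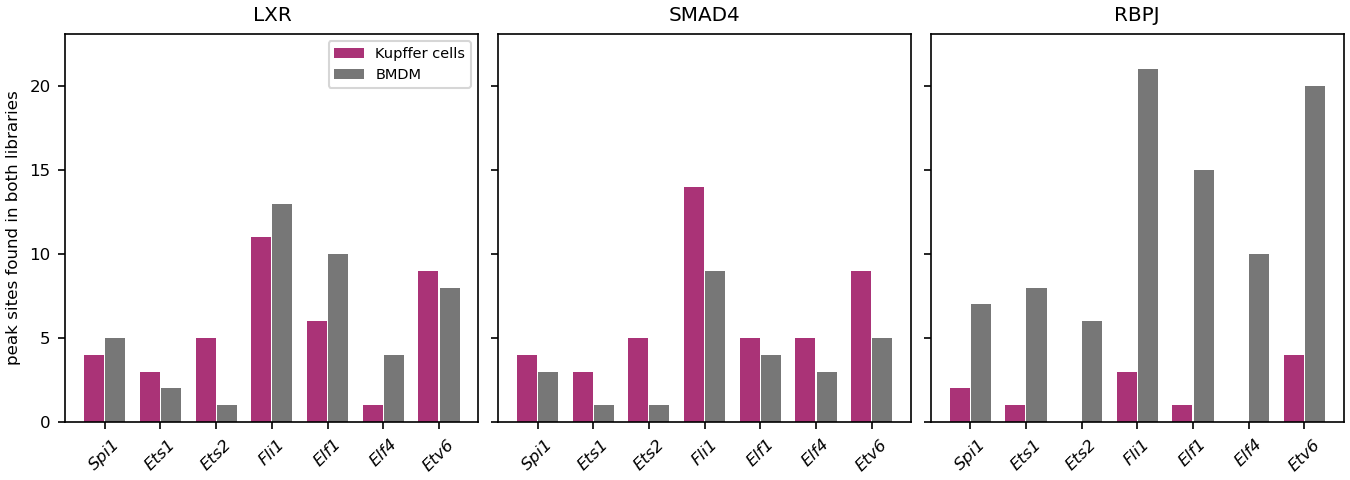
Number of separate peak sites at each member called in both libraries of a group, with a panel for LXR, SMAD4 and RBPJ and bars for Kupffer cells and BMDM. SMAD4 sites number 14 at Fli1 in Kupffer cells and 9 in BMDM, and RBPJ bars in BMDM reach 21 at Fli1 beside 3 in Kupffer cells.

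Peaks in both libraries of both cells stood at 41 of 134 member regions for LXR (30.6%, against 23.2% of all), 34 for SMAD4 (25.4%, against 20.3%) and 21 for RBPJ (15.7%, against 10.3%). Regions were also counted that had a peak in both libraries of one cell and in neither library of the other. For SMAD4, 15 of 134 member regions (11.2%, against 7.07% of all) were of Kupffer cells alone and 5 (3.73%, against 4.51%) of BMDM alone. For LXR they were 4 (2.99%, against 8.98%) and 7 (5.22%, against 3.84%). For RBPJ, 60 member regions (44.8%, against 43.1%) were of BMDM alone and 2 (1.49%, against 0.311%) of Kupffer cells alone. Of the 42 member regions higher in Kupffer cells than in monocytes, 20 held an LXR peak and 23 a SMAD4 peak of both Kupffer cell libraries. Among all regions called higher there, the shares were 62.3% and 50.5%.

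At 11 sites all 3 factors had a peak in both of their Kupffer cell libraries: 4 at Etv6, 3 at Fli1, 2 at Spi1 and 1 each at Elf1 and Ets1. Read as regions of the first table, 21 of 134 members (15.7%) overlapped peaks of all 3 factors in both Kupffer cell libraries, against 8.76% of all regions within 100 kb of a start. Peak heights are the authors' tag counts per 10 M. The first Spi1 site (chr2:91082960-91083250), in a region of the second table at -12702 bp and just before the stretch that rose in Kupffer cells, was called in all 12 libraries. Its height was 99.4 and 32.7 for LXR, 101.4 and 145.2 for SMAD4 and 17.5 and 13.2 for RBPJ in Kupffer cells. In BMDM it was 84.2 and 83.0 for LXR, 115.7 and 112.7 for SMAD4 and 118.1 and 114.4 for RBPJ. The other Spi1 site of the 11 was chr2:91084309-91084846. A further upstream site (chr2:91089055-91089352), in the region at -7468 bp, had no RBPJ peak in Kupffer cell nuclei and was not among the 11. It had LXR heights of 101.5 and 24.1 and SMAD4 heights of 64.9 and 101.4 in Kupffer cells, and in BMDM no LXR peak, a SMAD4 height of 41.3 in the first library, and RBPJ heights of 41.0 and 36.6.

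Other sites called in all 12 libraries were 1 of Etv6 and 2 of Fli1. The Etv6 site (chr6:134065144-134065420) lies in the region at 29555 bp, with LXR heights of 135.7 and 35.3 in Kupffer cells and RBPJ heights of 81.3 and 81.2 in BMDM. The Etv6 region at 34366 bp, which rose with DLL4, held 1 site (chr6:134070001-134070207), with a peak in the second RBPJ BMDM library (25.2), the second LXR BMDM library (46.8) and the first SMAD4 Kupffer cell library (23.8). The site at chr6:134072442-134072720, inside the region at 36901 bp, had RBPJ heights of 80.1 and 85.8 in BMDM and no RBPJ peak in Kupffer cell nuclei. At Fli1 the site chr9:32516691-32517039 had LXR heights of 137.5 and 45.5 in Kupffer cells and 281.5 and 256.5 in BMDM.

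The Elf1 region at -6530 bp, whose difference was the largest of the member regions in Kupffer cells against RLM, overlapped 2 sites, of which the one near its centre (chr14:79508892-79509227) was called in 10 libraries. Its LXR heights were 109.7 and 39.8 in Kupffer cells and 46.4 and 31.2 in BMDM, and its SMAD4 heights were 67.6 and 64.3 in Kupffer cells and 52.0 and 54.6 in BMDM. The Ets1 site at chr9:32672413-32672718, in the region at -23451 bp, had LXR heights of 49.9 and 30.4, SMAD4 heights of 28.5 and 40.5 and RBPJ heights of 5.96 and 5.87 in Kupffer cells. In BMDM it had 12.6 in the first LXR library and 8.44 in the first RBPJ library, with no other peak. At Ets2, the site beyond the 3′ end (chr16:95724232-95724515) had LXR heights of 153.9 and 45.1 and SMAD4 heights of 32.7 and 49.3 in Kupffer cells, and 43.3 in the second LXR BMDM library. The Ets2 sequence printed above overlaps a site (chr16:95702323-95702581) with SMAD4 heights of 16.4 and 24.9 in Kupffer cells and 25.1 in the second BMDM library. That site also had RBPJ heights of 17.5 and 20.6 in BMDM, and LXR heights of 26.7 in the first Kupffer cell library and 13.4 in the second BMDM library. The Etv6 sequence overlaps one (chr6:134035495-134035948) with a peak in 11 of 12 libraries. In these sites the second LXR Kupffer cell library, sequenced to 56.3 M tags, gave lower heights than the first of 28.1 M, and per the file headers its input library is named for a NASH diet.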

How the data were processed

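H3K27ac values are counts: raw tags per region of 2000 bp that the authors deposited in 2 tables. Each LXR, SMAD4 and RBPJ library has its own HOMER list, in which the authors deposited for each peak its signal (the tag count scaled to 10 M), its score from findPeaks and the ratio of ChIP to input. Per the file headers, calling was done per library with a 0.001 limit on false discoveries, 4-fold minimums against input and the surrounding 10000 bp, and 0.0001 as the Poisson p. In Kupffer cell nuclei, SMAD4 replicate 2 and RBPJ replicate 1 share an input. Bowtie2, HOMER and the build mm10 are named without tool versions, per the submitters' processing notes; what the authors did to filter reads is not given in the sources used here. Groups came from sample titles. The 12 input samples were not analysed here. Depth was 7.37 to 19.5 M and 20.2 to 27.2 M tags per H3K27ac library, and 2 libraries per group limit the precision. Whether a group's libraries stem from different mice or dishes is not labelled, and the spread behind the p-values may be technical.

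Tests used edgeR 4.0.16 (quasi-likelihood, TMM, filterByExpr, Benjamini-Hochberg) in R 4.3.3, with 1 fit per table over all regions, and again over sums of regions per nearest gene within 100 kb. The nearest gene need not be the target, and a tag in overlapping regions is counted more than once. Peaks were joined to regions by an overlap of at least 1 bp. Sequences came from RefSeq (GRCm38.p6). In simulated data on the real regions of the first table, with 1 assumed spread for all regions, 200 were changed 4-fold in RLM against monocytes. Of those tested and estimated in the right direction, 76.8% were called, and 5.59% of calls were false. The members and lists were chosen with earlier results of these data known. Named regions are, per member, the start region and the called region with the largest difference per comparison and direction, and further regions, sites and genes were named after their values were seen. Alternatives were DESeq2 1.42.0, other scaling, filters, distances and peak cut-offs, and leaving out each library.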

Additional observations from a re-analysis of the deposited data

How the results depend on the processing

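No result called in the main fit or in an alternative had its direction reversed there. Changes of sign in results without a call were not counted. Without the 2-fold minimum, member regions called in RLM against monocytes numbered 11 higher and 14 lower. Lower ones numbered 15 in Kupffer cells against RLM and 16 in Kupffer cells against monocytes. With DLL4, 27 were higher and 10 lower. H3K27ac region counts in this section are of members only. Shares over all regions at these settings are not given, so the counts show no difference from all regions. With total tags, 1 gene sum was higher in Kupffer cells against RLM, and over all genes the share of higher among called sums went from 53.3% to 30.6% there, from 56.1% to 38.8% in Kupffer cells against monocytes and from 66.9% to 54.4% with DLL4. DESeq2, or no filter on low counts, left 1 region lower with DLL4. Counting peaks of at least 8-fold over input, LXR in BMDM stood at 33 member regions of the first table (61 before). For the second table it was 39 (66 before). These were 24.6% and 26.7% of member regions, against 19.2% and 18.2% of all within 100 kb of a start. RBPJ in Kupffer cell nuclei stood at 1 and 1 (24 and 23 before). That was 0.746% and 0.685% of member regions, against 1.21% and 1.04% of all. With 1 library left out, its group has a lone library that is assumed to vary like the other groups, and counts ranged from 3 to 8 higher and 7 to 13 lower in RLM against monocytes, from 28 to 48 and 4 to 9 in Kupffer cells against RLM, from 35 to 44 and 7 to 9 in Kupffer cells against monocytes, and from 4 to 10 and 0 to 3 with DLL4. With peaks of a single library, RBPJ in Kupffer cell nuclei stood at 30 to 40 regions of the first table. That was 22.4% to 29.9% of members, against 18.7% to 23.2% of all. In the second it stood at 31 to 41, or 21.2% to 28.1% against 16% to 19.9%. SMAD4 in BMDM stood at 53 to 66 (39.6% to 49.3% against 38.1% to 46.5%) and 59 to 72 (40.4% to 49.3% against 36.7% to 45.4%). The replicate numbers did not pair the samples (r of deviations from -0.02 to 0.01 over regions), and with a replicate block 5 higher and 8 lower, 43 and 8, 39 and 9, and 6 and 3 regions were called in the 4 comparisons. Among the checks of single regions and genes, 1252 kept the call or the lack of one, 32 lost a call and 5 gained one. Regions under about 3 CPM rest on few tags, and a change there was often not detectable at this depth.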
